A study of Homo sapiens with 4 samples.

Results

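The 10 genes described here belong to the BCL2 family, the proteins that decide whether a cell releases the contents of its mitochondria and dies. They were taken as 4 survival genes (BCL2, BCL2A1, BCL2L1 and MCL1) and 6 death genes (BAX, BAK1, BCL2L11, BID, BBC3 and PMAIP1), and every peak whose deposited nearest gene was among them was kept, at any distance. This gave 11 of the 32479 peaks of ChIP replicate 1 and 14 of the 40494 peaks of ChIP replicate 2, and 4 of the 10 genes (BCL2, BCL2A1, BCL2L11 and PMAIP1) had a peak in either list. That count has no background here, as the share of all genes with a peak in either list is not given. Chromatin of 501mel, an established human melanoma cell line, was cross-linked with formaldehyde and immunoprecipitated with an antibody against HA, a short peptide tag. Both ChIP samples are labelled TBX3-3xHA, and TBX3 is a T-box transcription factor. How the tagged protein was expressed is not given in the sources used here. The labels name 2 input samples, which were not analysed here, and no ChIP from cells without the tagged protein is described. Whether the 2 ChIP samples came from separate cultures is not stated.

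The BCL2 family works through 3 kinds of protein. BCL2, BCL2A1 (also called BFL1), BCL2L1 (BCL-X) and MCL1 hold the effectors in check, BAX and BAK1 are the effectors that permeabilise the outer mitochondrial membrane, and BCL2L11 (BIM), BID, BBC3 (PUMA) and PMAIP1 (NOXA) carry only the BH3 motif and trigger death by engaging the others. In the melanocyte lineage, BCL2 and BCL2A1 are known targets of the transcription factor MITF. Binding near a gene is described here without any measure of its expression.

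A peak was known by its summit, a single base, with a score given by the authors on a scale that the file headers do not state. Scores are therefore given with their percentile in their own list, where 100 would be the highest score. Summits of the 2 lists that were each other's nearest and lay within 200 bp are called a shared region. Of the member summits, 9 of 11 in replicate 1 had a partner (81.8%, 95% Wilson interval 52.3% to 94.9%), and 9 of 14 in replicate 2 (64.3%, 38.8% to 83.7%). Among all peaks the shares were 69.9% and 56.1%, inside these intervals, which cover counting error only. The partners lay 1 to 114 bp apart, with a median of 23 bp, against 28 bp over all 22702 shared regions.

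The 9 shared regions fell to 3 of the 10 genes: 6 to BCL2, 2 to BCL2A1 and 1 to BCL2L11. Among 19970 protein-coding genes, 27.6% had a shared region assigned to them. The member share is close to that background. No shared region was assigned to BCL2L1, MCL1, BAX, BAK1, BID, BBC3 or PMAIP1. When regions beyond 100 kb from the transcription start site (TSS) were dropped, these 3 genes still had one, against 25.5% of all genes. With a limit of 10 kb only BCL2A1 had one, against 9.72%. None of the member summits of either list lay within 1 kb of a TSS: the closest was 7429 bp away in replicate 1 and 2536 bp away in replicate 2. The share of all summits within 1 kb of a TSS is not given here, so this is not read as a trait of these genes.

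BCL2, the founding survival gene of the family, held most of the assigned sites. It spans 63123346 to 63320090 on chromosome 18 in hg38 (197 kb) and is transcribed towards lower coordinates. The shared region with the lowest sum of score ranks at this gene had summits at 63259227 in replicate 1 and 63259153 in replicate 2, 60153 and 60227 bp downstream of the TSS. Its scores were 60.9 (percentile 88.1) and 66.6 (percentile 86.3). The other regions inside the gene were weaker in both lists. At 81109 bp from the TSS the scores were 45.1 and 40.8, at 126302 bp they were 19.3 and 28.0, at 140581 bp they were 16.0 and 26.6, and at 157459 bp they were 34.1 and 32.1. These 5 regions all lay in intron 2 of 2 of the transcript NM_000633, spread over 97.3 kb, and none overlapped an annotated repeat. The first 60.2 kb of the gene downstream of the TSS had no summit in either list.

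The BCL2 region closest to the TSS lay on its other side. Its summits at 63336337 and 63336396 were at -16957 and -17016 bp from the TSS (negative values are upstream), in intron 8 of 9 of KDSR, a neighbouring gene for an enzyme of sphingolipid synthesis, and within a Charlie1a DNA transposon. With scores of 10.8 (percentile 43.8) and 9.86 (percentile 38.1), it was the weakest of the 9 shared regions by rank sum. BCL2 also had a summit without a partner in each list, at 63161176 in replicate 1 (score 4.50) and at 63198896 in replicate 2 (score 6.91, in a simple repeat). Having 6 or more assigned shared regions was rare among protein-coding genes, at 1.59%. Genes of similar length were counted by another rule: among 1631 genes within 1.5 times the length of BCL2, 8.77% held at least 5 shared regions inside their span, and the median was 1. These shares differ in rule and cutoff as well as in the genes counted, and an effect of length was not tested.

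BCL2A1, which encodes a survival protein that sequesters BH3-only proteins, had a shared region on each side of its short span (79960892 to 79971196 on chromosome 15, 10.3 kb). The upstream one had summits at 79978730 and 79978752, at -7429 and -7451 bp from the TSS in intergenic sequence, with scores of 62.8 (percentile 88.5) and 65.4 (percentile 85.9). It had the lowest rank sum of all 9 member regions, 9425.5 against 9435.0 for the strongest BCL2 region. The order of the 2 regions differed between the lists: that of BCL2A1 scored higher in replicate 1 and that of BCL2 in replicate 2. The downstream one had summits at 79952341 and 79952305, 18960 and 18996 bp from the TSS and past the 3′ end of the gene, with scores of 26.1 and 41.6. Replicate 2 alone had 3 more summits here, at 79954793, 79973837 and 79989783, with scores of 5.55, 5.55 and 7.96. The one at 79973837, within an LTR16B2 element, was the member summit nearest to any TSS in either list, at 2536 bp.

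Among 8601 genes ordered by the rank sum of their best shared region, BCL2A1 stood at place 2962, BCL2 at 2964 and BCL2L11 at 6678. The 3 genes whose best region was closest to that of BCL2A1 in rank sum over the 2 samples were LOC102724452 and PARD6B, both at 9425.0, and METTL21C, at 9426.5. Their scores differed from those of BCL2A1 in each list (42.8 and 94.5, 84.2 and 54.7, and 48.5 and 81.8), so the likeness is one of summed rank only.

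BCL2L1, whose long product BCL-XL is a broad inhibitor of apoptosis, had no peak by the nearest-TSS rule, yet its transcribed span held 4 shared regions. The span runs from 31664452 to 31723963 on chromosome 20 (59.5 kb), and the deposited annotation placed all 4 regions in introns of BCL2L1 transcripts. Their nearest TSS belonged to COX4I2, a cytochrome c oxidase subunit gene past the 3′ end, or to ABALON, a non-coding transcript. The strongest, with summits at 31666795 and 31666830, was 57.2 kb from the 5′ end of the span. It scored 95.7 (percentile 93.3) and 111 (percentile 92.5), above every region that the rule assigned to a member in either list. The next, at 31675569 and 31675568, scored 53.9 and 72.5 at 48.4 kb.

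The other BCL2L1 regions were less even between the replicates. At 24.5 kb from the 5′ end the scores were 7.70 (percentile 29.5) and 29.4 (percentile 70.9), and at 11.2 kb they were 22.5 (percentile 67.9) and 35.6 (percentile 75.3). None of the 4 overlapped a repeat. The span also held summits without a partner, 2 in replicate 1 and 3 in replicate 2. Of 3699 protein-coding genes within 1.5 times the length of BCL2L1, 1.78% held at least 4 shared regions in their span, and the median was 0. This set was looked at after the positions had been seen, so it describes the locus and tests nothing.

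**Figure D1:**
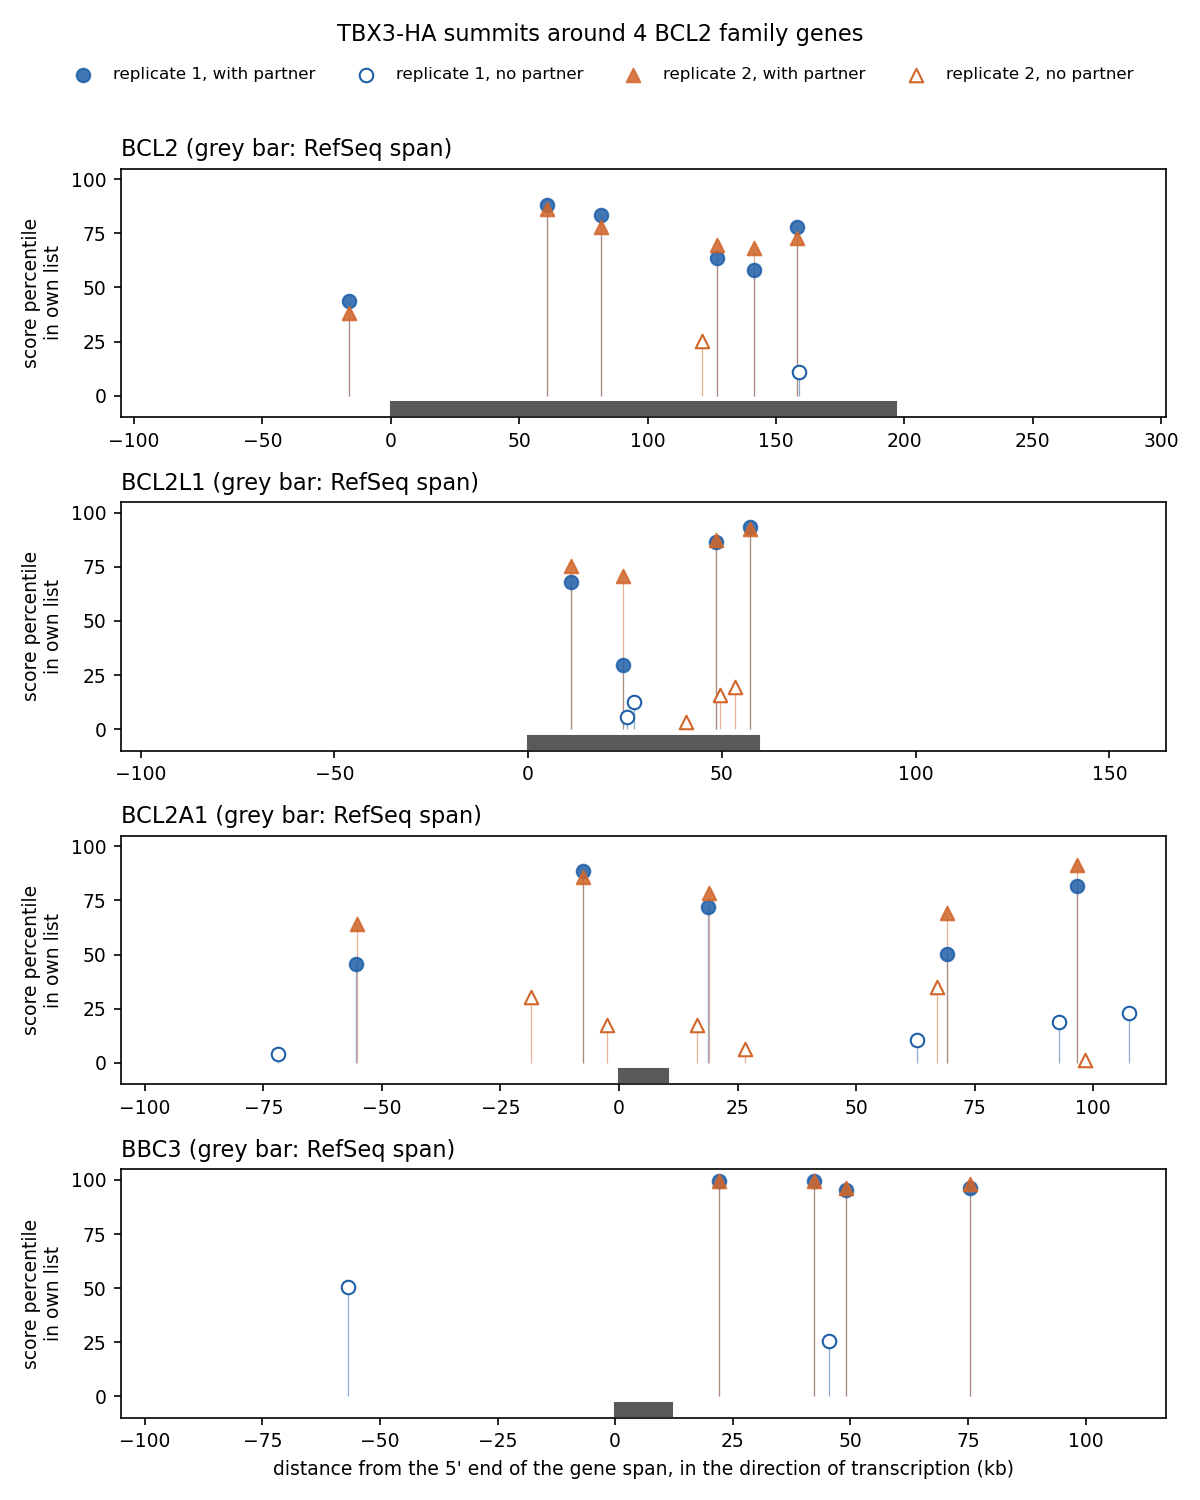
Summits within 100 kb of BCL2, BCL2L1, BCL2A1 and BBC3. The horizontal axis is the distance in kb from the 5′ end of the RefSeq span (grey bar) in the direction of transcription, the vertical axis is the score percentile within the own list, circles are replicate 1 and triangles replicate 2, and filled symbols have a partner within 200 bp in the other list. Of the shared regions drawn, 5 of 6 at BCL2 and 4 of 4 at BCL2L1 lie inside the gene, all 5 at BCL2A1 lie outside it, and the 4 shared regions of BBC3 lie past its 3′ end at percentiles of 95.4 and above.

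MCL1, a short-lived survival protein that many cells need at all times, had no site nearby. Its span of 5.05 kb on chromosome 1 (150574558 to 150579610) was 87.2 kb from the closest shared region, at 150487339 and 150487288 in the promoter of TARS2, a mitochondrial threonyl-tRNA synthetase gene (scores 11.6 and 20.8). The closest summit of either list was 41.6 kb away and occurred in replicate 2 only. Over all protein-coding genes the distance from the span to the closest shared region had a median of 46.6 kb, with quartiles of 5.17 and 125 kb, so MCL1 lay between the median and the upper quartile.

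Neither effector gene had a shared region within 10 kb. BAX (48954875 to 48961798 on chromosome 19, 6.92 kb) had its closest one 27.8 kb upstream, with summits at 48927085 and 48927095 in an LTR47B4 element, a remnant of an endogenous retrovirus. That region was among the strongest of the whole experiment, with scores of 302 and 411 (percentile 99.3 in both lists), and the deposited annotation assigned it to DHDH, from whose TSS it lay at -6597 bp. BAK1 (33572552 to 33580276 on chromosome 6, 7.72 kb) had its closest shared region 33.2 kb upstream, at 33613452 and 33613491, assigned to ITPR3 and of middling score (12.4 and 13.4, percentiles 50.1 and 48.9).

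Of the BH3-only genes, BCL2L11 was the only one with a shared region assigned. Its product BIM binds all of the survival proteins. The summits, at 111155729 and 111155843 on chromosome 2, were 34815 and 34929 bp downstream of the TSS, in intron 4 of 4 of NM_207003 and inside the span of 47.5 kb. They scored 17.5 (percentile 60.6) and 15.6 (percentile 53.6). Their separation of 114 bp was the widest of the 9 pairs, and requiring partners within 50 bp removed it. PMAIP1, whose product NOXA chiefly opposes MCL1, had 1 summit in each list and no shared region. These summits were at 60120321 in replicate 1 (score 10.0, 220361 bp downstream) and at 59883394 in replicate 2 (score 5.55, at -16566 bp), each at least 37651 bp from any summit of the other list. The closest shared region was 254 kb from the gene, beyond the upper quartile over all genes.

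BBC3 and BID had no assigned peak but had shared regions around them, all strong near BBC3 and of mixed strength near BID. BBC3 encodes PUMA, a mediator of death after p53 activation. All 4 shared regions within 100 kb of its span (47220824 to 47232860 on chromosome 19) lay past its 3′ end over a stretch of 53.3 kb. The closest, with summits at 47210761 and 47210766, was 10.1 kb beyond the span at the end of SAE1, a SUMO-activating enzyme gene, and scored 295 (percentile 99.3) and 419 (percentile 99.4). The strongest, at 47190515 and 47190555, lay 30.3 kb beyond the span and scored 344 and 450 (percentile 99.5 in both lists). The remaining regions, at 37.0 and 63.4 kb, scored 120 and 134 in replicate 1 and 176 and 256 in replicate 2. For 3 of these 4 regions the deposited nearest gene was MIR3190, a microRNA whose hairpin (47226942 to 47227021) lies inside the span of BBC3.

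BID links death receptors to mitochondria once it has been cleaved by caspase 8. It spans 17734138 to 17774665 on chromosome 22, and 6 shared regions lay within 100 kb. A pair of them were within 10 kb, at 7.20 and 9.10 kb past its 3′ end and inside BCL2L13. The nearer scored 11.9 (percentile 47.8) and 7.58 (percentile 27.2), and the other 19.6 (percentile 64.2) and 29.0 (percentile 70.3). On the upstream side the closest was at 17786662 and 17786654, 12.0 kb from the span at the end of a MICAL3 transcript, with scores of 71.1 (percentile 90.1) and 86.9 (percentile 89.7). At 27.5 kb past the 3′ end, summits at 17706592 and 17706587 lay in a promoter of BCL2L13, a mitochondrial member of the wider family, and scored 45.6 and 94.7. Further upstream, the region 62.7 kb from the span scored 7.38 (percentile 29.1) and 7.43 (percentile 27.1). The one at 92.7 kb scored 29.2 (percentile 74.8) and 62.2 (percentile 85.3).

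The survival and death genes differed in how many sites were assigned to them, and the size of that difference depended on the rule. By nearest TSS the 4 survival genes had 8 shared regions and the 6 death genes 1. Inside the gene spans the counts were 9 and 1, in 2 survival genes (BCL2 and BCL2L1) and 1 death gene (BCL2L11). Of all protein-coding genes, 20.9% had a region inside. The survival genes were longer, with 272 kb of span in sum against 119 kb. Per 100 kb of span this came to 3.31 regions for survival genes and 0.840 for death genes, beside 0.735 for all protein-coding genes.

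Widening the window brought the counts of the groups closer, though the groups differ in their number of genes. With 10 kb added on each side, 3 of 4 survival genes had 11 regions and 2 of 6 death genes (BCL2L11 and BID) had 3, against 28.6% of all genes with at least 1. BBC3 fell just outside this window, with its closest shared region 10063 bp from the span. With 100 kb added, the counts were 16 and 14, and 4 of 4 survival genes and 5 of 6 death genes had a region, against 69.1% of all genes. Per gene this was 4.00 regions for survival genes and 2.33 for death genes, beside 1.85 for all. Per 100 kb of these widest windows the values were 1.49 for survival genes, 1.06 for death genes and 0.700 for all. In the wide windows 21 of 30 regions were assigned to another gene. No test was made between the groups, since genes are not replicates and 1 or 2 genes decide each count. Without BCL2, no survival gene other than BCL2A1 had an assigned region.

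**Figure D2:**
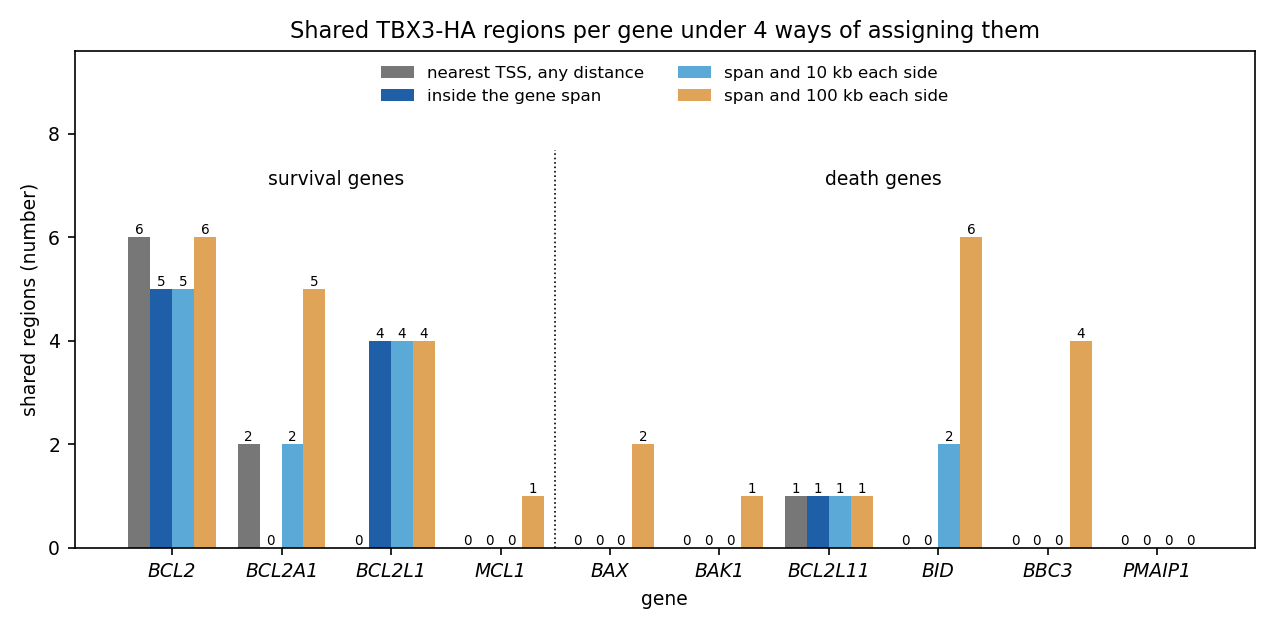
Number of shared regions per gene under 4 rules: nearest TSS at any distance, inside the RefSeq span, and the span widened by 10 or 100 kb on each side. Bars start at 0 and carry their counts. BCL2L1 goes from 0 to 4 and BBC3 from 0 to 4 when the rule changes, while PMAIP1 is at 0 under every rule shown.

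The highest scores stood near the death genes BBC3 and BAX. Regions within 100 kb of survival genes had a median percentile of 70.0 in replicate 1 and 74.1 in replicate 2 (n = 16), ranging from 29.5 to 93.3 and from 38.1 to 92.5. Around death genes the medians were 79.2 and 87.5 (n = 14), with ranges from 29.1 to 99.5 and from 27.1 to 99.5, so the ranges overlapped over most of their length. Above the percentile of 90 in both lists stood 5 regions near death genes, 4 at BBC3 and 1 at BAX, and 1 region near survival genes, the strongest in BCL2L1. The 4 BBC3 regions are among the 14 around death genes, so 1 locus weighs on those medians. Medians without BBC3, and the share of all shared regions above 90 in both lists, are not given here. The 9 regions assigned by the rule had a median percentile of 72.0 in replicate 1 and 72.9 in replicate 2, beside 63.6 and 70.5 for all shared regions. Of these 9, 1 overlapped a repeat, whereas 41.7% of all shared regions did in replicate 1 and 41.8% in replicate 2.

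**Figure D3:**
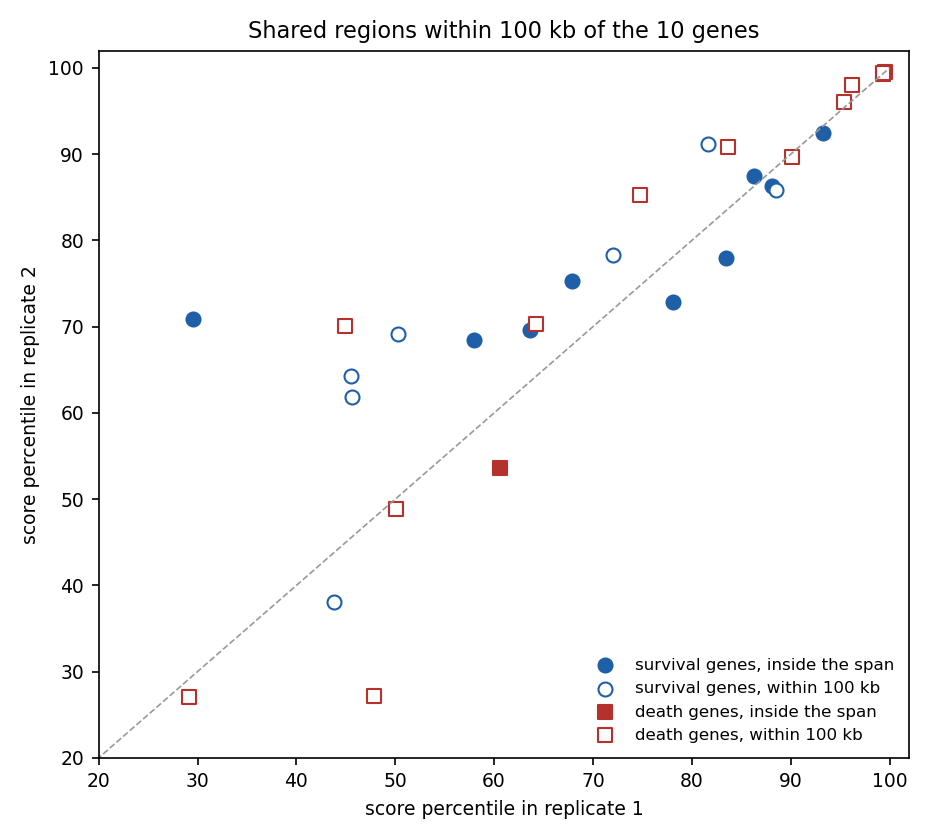
Score percentile in replicate 1 (horizontal) against replicate 2 (vertical) for the 30 shared regions within 100 kb of the 10 genes. Blue circles are survival genes, red squares death genes, filled symbols lie inside the gene span, and the dashed line marks equal percentiles. The highest points, at 95.4 and above in both lists, belong to BBC3 and BAX.

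Member summits without a partner had low scores. The 2 in replicate 1 and the 5 in replicate 2 were all below the median score of their list (12.4 and 13.9). Among all replicate 1 peaks of the same score decile, 34.5% had a partner for the unpaired BCL2 summit and 73.7% for that of PMAIP1. In replicate 2 the corresponding shares were 18.3% for the summits scoring 5.55, 26.6% for the BCL2 summit and 36.0% for the BCL2A1 summit at 79989783. The weakest shared member region, that in KDSR, was the only one of the 9 below the median in either list.

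Start-site sequence was at hand from RefSeq (GRCh38.p14) for 9 of the 10 genes, in 14 windows from 250 bases before to 50 bases after a start, some of them overlapping. MCL1 had no entry. None of the 14 windows held a summit, and of all 35116 promoter windows only 404 held a summit of a shared region. Each was searched on both strands for the T-box element GGTGTGA, its shorter core GTGTGA, which the longer motif contains, the E-box CACGTG and the M-box core CATGTG, letters to which MITF-type factors bind. The T-box element and its core were in 0 of the 14 windows, beside 3.45% and 12.0% of all 35116 promoter windows. The E-box was in 4 of the 14 windows (BAX, BBC3 and 2 overlapping windows of BID that share 1 match), beside 7.26% of all windows. The M-box core was in 2 of the 14 (BCL2A1 and BID), beside 11.1%. A match is a stretch of letters, not a site shown to be bound. The promoters of BCL2A1 and BAX are shown because the first belongs to BCL2A1, which had the closest shared region to a TSS, and carries the M-box core 25 bases upstream, and the second carries the E-box at 138, 93, 45 and 14 bases upstream, with the closest summit of either list 27.8 kb away. Capitals mark the motifs, and both run 5′ to 3′ on the strand of the gene.
BCL2A1, chr15:79971147-79971446, minus strand: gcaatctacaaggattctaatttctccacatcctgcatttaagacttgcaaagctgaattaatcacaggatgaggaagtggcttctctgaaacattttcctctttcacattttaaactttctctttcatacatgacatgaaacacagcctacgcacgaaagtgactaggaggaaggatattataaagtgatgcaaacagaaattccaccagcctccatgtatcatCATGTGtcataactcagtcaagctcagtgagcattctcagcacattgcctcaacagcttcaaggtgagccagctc
BAX, chr19:48954625-48954924, plus strand: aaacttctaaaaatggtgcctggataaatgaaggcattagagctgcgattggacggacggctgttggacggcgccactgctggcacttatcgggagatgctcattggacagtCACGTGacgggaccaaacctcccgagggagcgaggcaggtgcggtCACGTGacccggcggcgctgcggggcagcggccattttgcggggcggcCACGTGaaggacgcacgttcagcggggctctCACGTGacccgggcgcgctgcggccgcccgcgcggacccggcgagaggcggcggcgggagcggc

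A shared region fell inside the promoter window of another gene at 2 places near a member. These are the only ones of the 30 regions for which sequence was at hand, and they are shown for that reason. At BCL2L13, near BID, the summits lay 189 and 194 bases upstream of the RefSeq start. The T-box core, on the minus strand as TCACAC, began 39 and 34 bases from them, and an M-box core, as CACATG, began 13 and 8 bases from them. At TARS2, the region closest to MCL1, the summits lay 80 and 131 bases upstream of the RefSeq start. The T-box element, on the minus strand as TCACACC, began 73 and 22 bases from them, and a second copy on the plus strand as GGTGTGA began 99 and 150 bases from them, downstream of the start. Among the 404 promoter windows that held a summit of a shared region, 7.18% had the T-box element, 21.5% its core, 17.6% the E-box and 20.0% the M-box core. Capitals again mark the motifs.
BCL2L13, chr22:17706531-17706830, plus strand: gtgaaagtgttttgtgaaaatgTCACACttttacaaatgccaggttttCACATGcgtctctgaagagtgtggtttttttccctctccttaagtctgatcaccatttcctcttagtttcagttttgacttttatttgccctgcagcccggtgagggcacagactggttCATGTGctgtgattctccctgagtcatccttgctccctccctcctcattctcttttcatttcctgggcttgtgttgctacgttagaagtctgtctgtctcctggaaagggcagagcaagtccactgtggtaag
TARS2, chr1:150487169-150487468, plus strand: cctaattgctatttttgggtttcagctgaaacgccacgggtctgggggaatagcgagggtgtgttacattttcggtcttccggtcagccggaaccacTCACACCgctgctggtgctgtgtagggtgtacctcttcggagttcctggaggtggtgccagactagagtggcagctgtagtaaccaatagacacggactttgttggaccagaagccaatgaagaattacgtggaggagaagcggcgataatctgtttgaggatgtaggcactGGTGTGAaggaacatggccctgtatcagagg

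The rest of the death machinery was described from a list of 37 genes by the nearest-TSS rule. A shared region was assigned to 14 of them (37.8%, beside 27.6% of all genes). Of 13 other BCL2 family genes, 6 had a region and 4 had one within 10 kb, beside 9.72% of all genes. These were HRK, a BH3-only gene (1637 bp, scores 118 and 84.6), BMF, another BH3-only gene (2574 bp, 51.6 and 66.0), BIK, also BH3-only (-6546 bp in an LTR13A element, 40.8 and 63.4), and BCL2L13 as above. HRK and BMF each had 2 regions within 10 kb, and the other HRK region was closer to the TSS, at 347 bp. Of 15 genes acting at or after the mitochondria, 3 had a region. Of 9 genes of the death receptor pathway, 5 had a region. Those within 10 kb were CASP8 (451 bp, scores 24.2 and 10.7), CASP10 (-6457 bp, in a MER50 element, 83.0 and 166) and CFLAR, the inhibitor of both (-5096 bp, in an L4_C_Mam element, 27.0 and 22.2), which are neighbours on chromosome 2. BAD, BOK, APAF1 and CASP9 were among the genes without a summit in either list, named after their values were seen.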

How the data were processed

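TBX3-3xHA ChIP-seq peak lists of 2 samples were analysed, 1 list per sample. Per the file headers, summits were annotated with HOMER annotatePeaks.pl against hg38. The submitters' processing notes name Bowtie2 2.3.5, MACS2 2.1.2, SAMtools 1.9, cutadapt 2.8 and FastQC 0.11.7 with no role or order. The peak threshold, the control used and how multiply mapping reads were treated are not given in the sources used here. The score was deposited by the authors, its scale is not stated, and it was used only for ranks within a list. Read depth is unknown, so precision cannot be scaled to it, and peak numbers can move with depth.

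Groups came from the sample titles. Summits were paired within 200 bp when mutually nearest, by a script in Python 3.11.15 with pandas 2.3.3 and NumPy 2.4.6, tested on simulated data. Percentiles use mean ranks for ties. Gene spans came from the RefSeq table of GRCh38.p14, the same primary assembly as hg38. Members and lists, including the 37 wider genes, were chosen with earlier results of these data known. All members are named. For each, the shared region with the lowest rank sum and the one closest to the TSS are given. Regions inside or near a span but assigned elsewhere were added after their positions were seen. Alternatives changed the pairing distance, the distance limit, the score limit, repeats, the replicate used and the gene assignment. With 1 ChIP condition and no analysed input, no test between conditions was possible. Genome sequence around summits outside promoter windows was not used here. The values of 1 gene of the wider list are not reported here.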

Additional observations from a re-analysis of the deposited data

How the results depend on the processing

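Of 54 alternatives, 31 stayed within the spread or within 1.5 times the count. For the shares with a partner the spread is the wide Wilson interval, so large shifts can count as unchanged. With pairing within 50 bp these shares fell from 81.8% to 54.5% in replicate 1 and from 64.3% to 42.9% in replicate 2, inside their intervals. Of the 9 member pairs, 6 lay within 50 bp, beside 71.4% of all pairs. Pairing within 500 bp changed none of the 7 values, and the transcript named in the annotation, chosen after seeing the data, gave 9, 1 and 3 for survival regions, death regions and members. Among the changes listed next, a narrower window or a stricter limit leaves fewer summits by construction, and a count without pairing leaves more. No other cause was tested.

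The 8 shared regions of survival genes became 5 within 100 kb of the TSS and 1 within 10 kb. The single region of death genes became 0 with pairing within 50 bp, 0 within 10 kb and 3 when counted over the gene span and 10 kb on each side. With either replicate left out no pairing is possible, and the 2 then counted were the death gene summits of the remaining list, not shared regions. The number of members with a region became 1 within 10 kb of the TSS and 5 by the gene span with 10 kb on each side. With pairing within 50 bp it was 2, which counts among the 31 that stayed within the limits. The share of replicate 1 summits with a partner became 100% within 100 kb, within 10 kb and when summits below the median score were dropped, where that of replicate 2 also became 100%. The median percentile in replicates 1 and 2 became 75.1 and 75.4 with pairing within 50 bp, without the summits below the median score and without repeats alike, 77.8 and 78.1 within 100 kb, and 88.5 and 85.9 within 10 kb, where 1 region is left. Without depth or input values, a gene with no summit cannot be told from one below the detection limit. Few summits per gene make each count fragile.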
